A study of Mus musculus with 6 samples.

Results

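Interleukins are secreted signalling proteins of the immune system, and each acts through a receptor whose chains are often shared between cytokines. Here the interleukin genes and their receptor chains were followed in the lungs of mice with ovalbumin-induced allergic airway inflammation, leaving out the type 2 cytokines Il4, Il5, Il13 and Il33 and their receptors Il4ra, Il13ra1, Il13ra2 and Il1rl1. A gene was taken if its symbol on the array platform begins with Il and a digit, if it encodes an interleukin or an interleukin receptor chain, and if it had a value on at least 4 of the 6 arrays. This gave 35 genes, 14 for ligands and 21 for receptor chains, out of 9774 genes measured as widely. The IL-18 binding protein gene Il18bp and the enzyme gene Il4i1 bear such a symbol but are neither, and were not counted. With several probes for a gene, the one measured on most arrays was used.

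The study profiled lungs of 6 C57 mice that were sensitized to and challenged with ovalbumin (OVA), numbered 1 to 6. Each mouse had 1 two-colour array, with its amplified lung RNA in 1 channel, while the other channel held amplified lung RNA pooled from C57 controls. The sources used here do not give age, sex, what the controls received, how many mice the pool holds or the time after challenge. The same pool served every array, so the spread reported below leaves out that between controls. With 1 array per mouse, it holds differences between OVA mice and technical spread together. The number of arrays limits the precision.

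The values are the deposited log ratios, read here as log2 and set to a median of 0 on each array. The labels name neither the dyes nor which channel is the numerator. Titles put the OVA mouse first, but genes known to be induced in this model lie on the negative side: Clca1, Muc5ac, Retnla and Arg1 had means of -3.06, -2.63, -2.81 and -2.26. They were negative in 5 mice and positive, between 0.14 and 1.00, in mouse 3. No direction was therefore assigned. "Negative" and "positive" below are signs of the deposited ratio, and a fold gives only how far the OVA lungs and the pool were apart. A natural logarithm could not be told apart from base 2 and would make each fold larger. A ratio carries no level, so no gene's abundance can be compared with another's.

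IL-1 family cytokines are alarm signals, released early in injury and infection, whose receptors pair a ligand-binding chain with an accessory chain. IL-6 family cytokines signal through a shared chain, gp130, encoded by Il6st, and IL-12 family cytokines are pairs of subunits that steer T cells. Cytokines of the common gamma chain sustain lymphocytes, IL-10 restrains inflammation, and IL-17 receptors call neutrophils through epithelial cells. In allergic lungs, these groups act beside the type 2 cytokines.

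The 4 promoters below belong to the genes the results turn on: Il6, with the largest mean ratio on either side, Il1r1 and Il1rn, the receptor and its natural antagonist, and Il12a, with the largest positive mean. Each is the first start listed for its gene in RefSeq (GRCm38.p6), from 250 bases before to 50 after the start, plus strand, 5′ to 3′. Capitals mark matches on either strand to motifs of 5 kinds. The NF-kB motif was GGGA, any 2 bases and TTCC. That of AP-1 was TGANTCA. That of C/EBP was TTG, any base and GCAA. The cyclic AMP response element was TGACGTC, and the TATA box was TATAAA.
Il6, chr5:30012864-30013163: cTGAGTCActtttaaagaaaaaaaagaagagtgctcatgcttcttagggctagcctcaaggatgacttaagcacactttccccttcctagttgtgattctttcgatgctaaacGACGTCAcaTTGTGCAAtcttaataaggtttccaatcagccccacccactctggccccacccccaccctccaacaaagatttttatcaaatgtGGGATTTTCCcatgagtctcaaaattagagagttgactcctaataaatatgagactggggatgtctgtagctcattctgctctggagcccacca
Il1r1, chr1:40224830-40225129: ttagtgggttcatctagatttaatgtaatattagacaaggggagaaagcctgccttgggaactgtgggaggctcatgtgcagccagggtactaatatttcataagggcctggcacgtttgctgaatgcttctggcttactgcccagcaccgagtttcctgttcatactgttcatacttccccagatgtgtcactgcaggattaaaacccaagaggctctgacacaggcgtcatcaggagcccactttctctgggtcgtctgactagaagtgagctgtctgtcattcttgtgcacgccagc
Il1rn, chr2:24336610-24336909: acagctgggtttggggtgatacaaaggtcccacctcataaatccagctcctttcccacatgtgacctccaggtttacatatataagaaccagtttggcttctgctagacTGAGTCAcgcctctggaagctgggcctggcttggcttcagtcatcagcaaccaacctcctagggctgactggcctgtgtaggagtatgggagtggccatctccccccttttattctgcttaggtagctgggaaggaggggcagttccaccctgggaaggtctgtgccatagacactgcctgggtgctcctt
Il12a, chr3:68690394-68690693: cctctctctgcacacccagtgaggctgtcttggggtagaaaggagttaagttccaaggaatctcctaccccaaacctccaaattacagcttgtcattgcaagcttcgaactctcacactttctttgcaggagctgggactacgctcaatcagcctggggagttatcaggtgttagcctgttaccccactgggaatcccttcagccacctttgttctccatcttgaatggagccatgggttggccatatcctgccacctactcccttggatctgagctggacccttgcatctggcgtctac

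The Il6 window held 4 of the 5 motifs, none overlapping another, with the NF-kB match beginning 44 bases before the start. Of the 26 genes of the set with a RefSeq window, 35 windows in all, Il6 alone held the NF-kB motif and Il6 alone the cyclic AMP response element. Among all 32851 windows of this length, the NF-kB motif was in 1.47%, the cyclic AMP response element in 3.21%, C/EBP in 2.94%, AP-1 in 7.81% and the TATA box in 13.6%. AP-1 letters were found in 6 of the genes (Il11, Il15ra, Il17rb, Il1a, Il1rn and Il6), C/EBP in Il3ra, Il6 and Il7r, and TATAAA in Il1a, Il1rl2 and Il1rn. The TATAAA match of Il1rn lay in the window of a later listed start, not printed above, and after that start. The Il1r1 and Il12a windows, their second listed starts included, held none of the 5. These matches describe letters and not bound sites.

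The table held between 10922 and 13132 values per array. The array of mouse 3 stood apart: the SD over its probes was 0.212, against 0.321 to 0.471 on the others. Sequences spotted 17 times on each array had a median SD within an array of 0.0911 to 0.136, which is the technical spread behind a single value. The lung markers Sftpc and Scgb1a1 were measured on all arrays, but ratios cannot show whether a tissue marker is abundant. Among marker lists, 3 of 8 measured macrophage genes passed the test, all negative, while 6 of 8 heart muscle genes and 4 of 6 adipocyte genes passed, all positive. So did 5 of 7 club cell and 2 of 5 endothelial genes, all positive, and 1 of 3 eosinophil, 2 of 5 dendritic and 1 of 3 thymus or lymph node genes, all negative. Of 6 alveolar type 2 genes 2 were negative and 1 positive, and none of 4 mast cell genes passed. Over all tested probes 24.4% passed, 12.3% negative and 12.0% positive, and no list was tested against these shares. The part of these cells in the results below was not tested. Whole lung was measured, so a difference in the number of cells of a type and one in RNA per cell cannot be told apart.

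Among the 35 genes, 9 differed from the control pool (limma, Benjamini-Hochberg adjusted p under 0.05 over all 11629 tested probes). The 6 negative genes were Il6, Il1r1, Il1rn, Il31, Il10ra and Il18r1, and the 3 positive genes were Il12a, Il34 and Il1rapl2. The share called was 25.7% of the set, near the 24.4% of all tested probes. On the negative side 17.1% of the set passed, beside 12.3% of all probes, and on the positive side 8.57%, beside 12.0%. A mean of at least 0.5 on either side was reached by 6 genes, all negative, and by 7.37% of all probes. The median mean ratio of the set was -0.044, and that of all tested probes -0.0033. Of the 28 genes measured on all 6 arrays, 7 had the same sign in every mouse, against 30.2% of probes measured as widely.

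**Figure D1:**
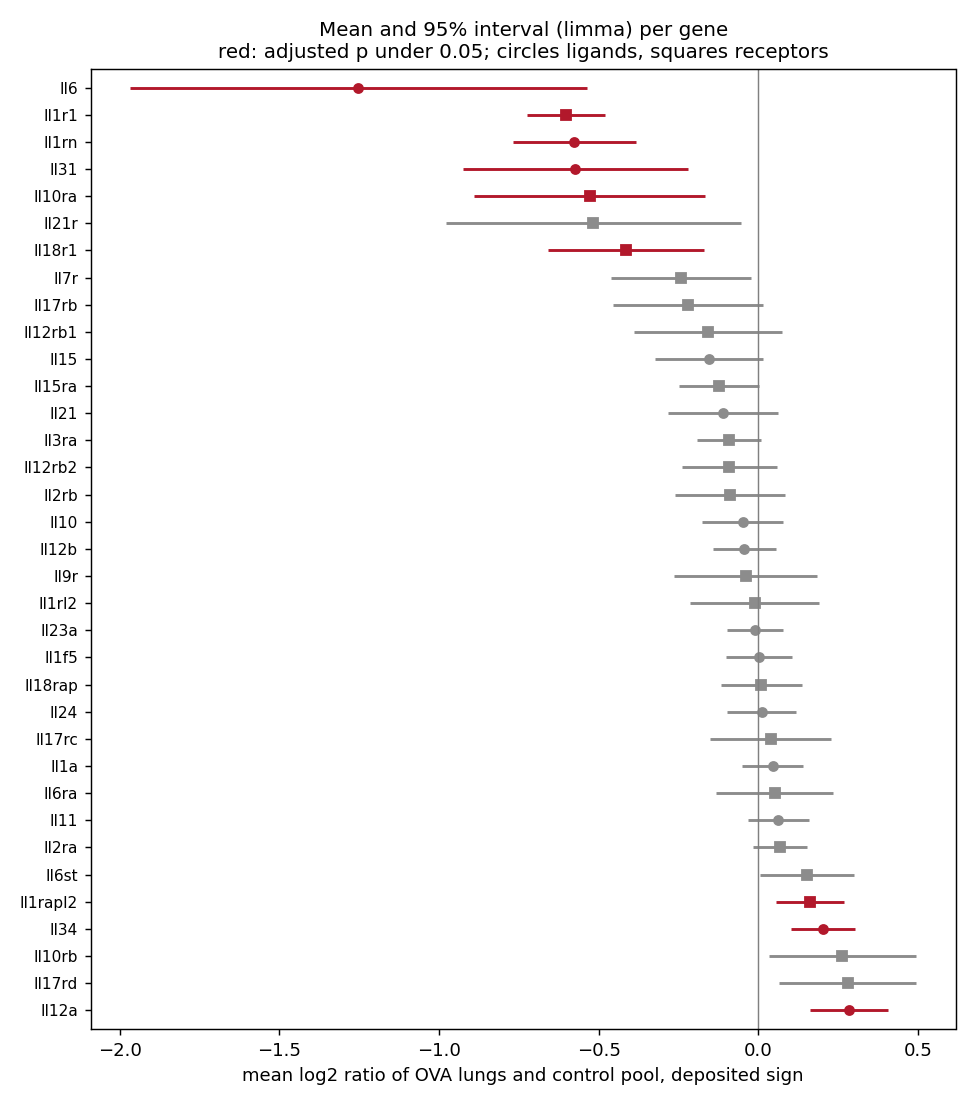
Mean log2 ratio (deposited sign, OVA lungs and control pool) of the 35 genes, with limma's 95% interval as a horizontal line. Circles are ligands and squares receptor chains. The 9 genes in red have an adjusted p under 0.05, with Il6 at -1.25 farthest from 0 and Il12a at 0.28 highest.

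Il6, the ligand that drives the acute-phase response, had the largest ratio. Its log2 ratios in mice 1 to 6 were -2.41, -1.27, -0.015, -2.19, -0.72 and -0.92. Mice 1 and 4 lay farthest from the pool, while mouse 3 was level with it. The mean was -1.25 ± 0.91 (SD, n = 6), which puts the OVA lungs 2.38-fold apart from the pool (95% interval 1.45 to 3.91, limma adjusted p = 0.0252). Its SD exceeded that of 99.4% of tested probes. Without mouse 3 the mean was -1.50 (limma adjusted p = 0.0090), while without mouse 2, 4 or 6 the call was lost (limma adjusted p = 0.0706, 0.0718 and 0.0541).

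Neither chain of the IL-6 receptor passed the test. Il6ra, which binds IL-6, was at 0.05 ± 0.19 over 5 mice (95% interval -0.13 to 0.23), negative in mice 1 and 2 and positive in mice 4, 5 and 6. Il6st, the signalling chain gp130, was at 0.15 ± 0.16 (n = 6, adjusted p = 0.114), positive in every mouse but mouse 3, without which it passed at 0.20 (limma adjusted p = 0.0469). A second Il6st probe had values on 3 arrays, all negative, at -0.011, -0.03 and -0.36 in mice 2, 4 and 6. In these mice the first probe was positive, at 0.27, 0.17 and 0.021, so the probes differed in sign. In each mouse, however, 1 of the 2 values was nearer 0 than the technical SD on its array, 0.136, 0.0911 and 0.135. Il11, another ligand that signals through gp130, was at 0.06 ± 0.08 (95% interval -0.03 to 0.16).

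Other genes that act with the IL-6 family were read from a list of 17, of which 9 were tested. They had 2 negative calls and 1 positive call, where 24.4% of all tested probes were called, and a median of -0.043. Osmr, the oncostatin M receptor that pairs with gp130, was at -0.53 ± 0.25, negative in 6 of 6 mice (limma adjusted p = 0.0090). Jak2, a kinase bound to cytokine receptors, was at -0.74 ± 0.32, also negative in every mouse (limma adjusted p = 0.0068). Lifr, the receptor of leukaemia inhibitory factor, was at 0.19 ± 0.13 (limma adjusted p = 0.0435). Socs3, the feedback inhibitor of gp130 signalling, had ratios of -1.48, -0.93, -0.20, -0.88, -0.058 and -0.17 in mice 1 to 6, with a mean of -0.62 that missed the threshold (adjusted p = 0.0534). Mice 1, 2 and 4 had its lowest ratios, as they had those of Il6. They also had those of Muc5ac, Retnla and Arg1, though not of Clca1, so this order is not particular to the IL-6 family.

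Il31, a cytokine known in itch that signals through Il31ra and the oncostatin M receptor, had ratios of -0.44, -0.31, -0.56, -0.039, -1.32 and -0.77 in mice 1 to 6. The order of mice differed from that of Il6: mouse 5 was lowest and mouse 4 was near 0. The mean was -0.57 ± 0.44, 1.49-fold apart (95% interval 1.16 to 1.90, limma adjusted p = 0.0319), and the call was lost without mouse 1, 2, 3 or 6. The mean in those fits was -0.60, -0.63, -0.58 and -0.53, with an adjusted p of 0.0517, 0.0614, 0.0522 and 0.0837.

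**Figure D2:**
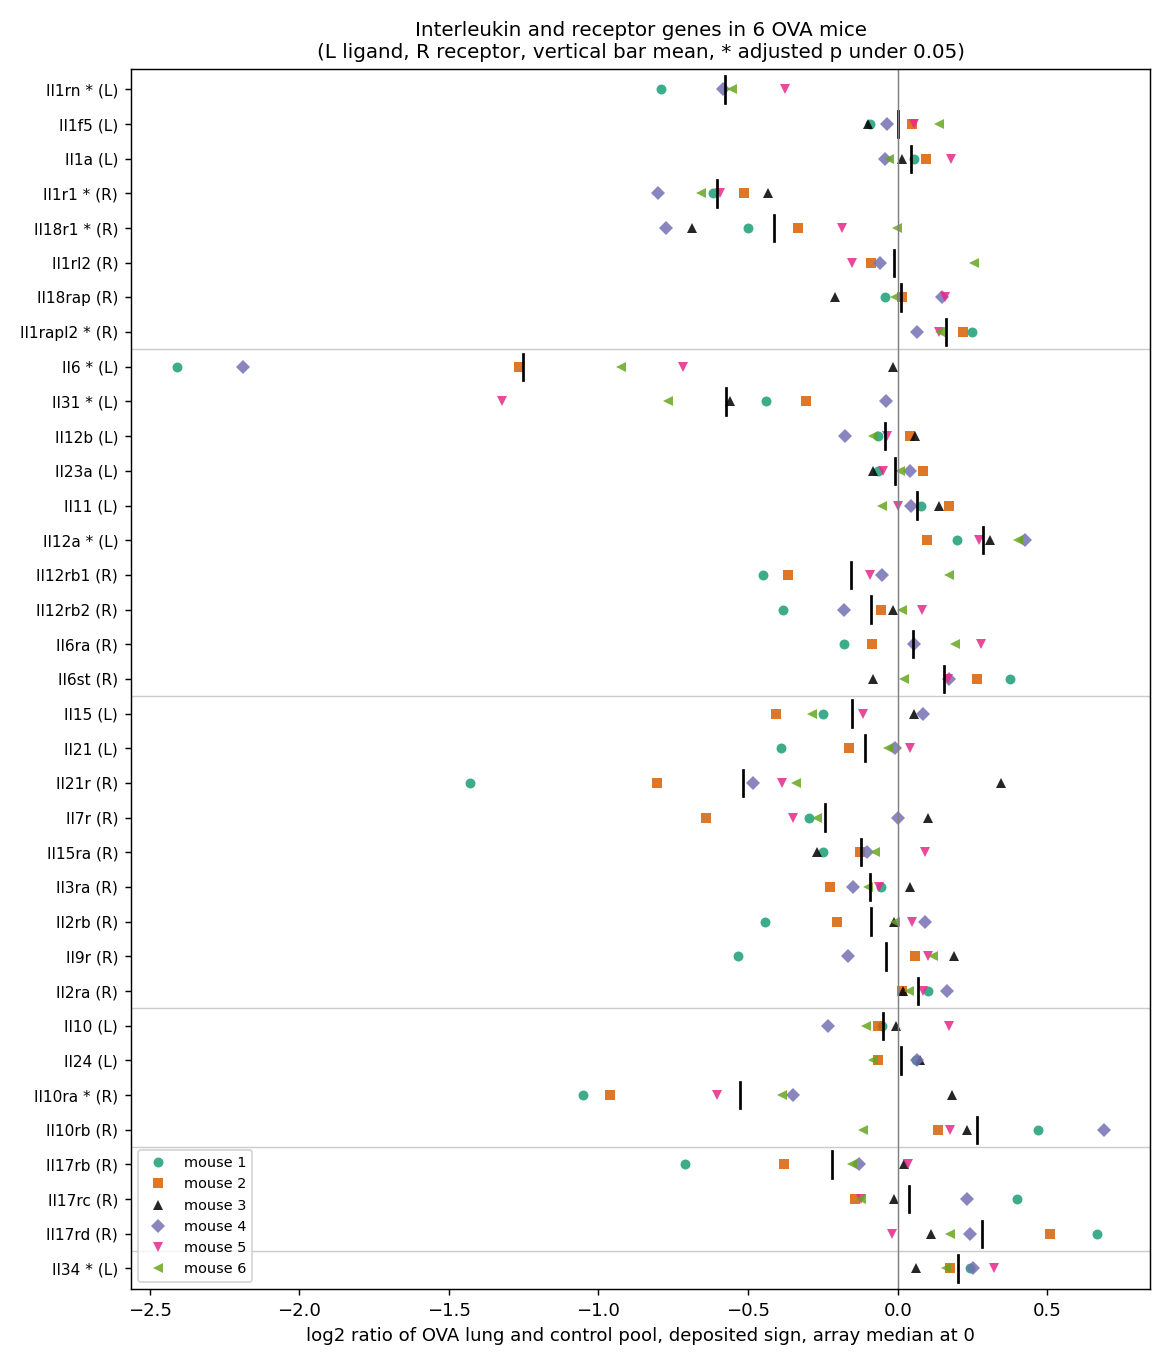
Log2 ratio of OVA lung and control pool (deposited sign) for every gene and mouse, 1 symbol per mouse and a vertical bar at the mean. Ligands are marked L and receptor chains R, an asterisk marks an adjusted p under 0.05, and grey lines separate the IL-1, IL-6 with IL-12, common chain, IL-10, IL-17 and other groups. Il6 spans -2.41 to -0.015, while Il1r1 stays between -0.80 and -0.43.

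Of the measured IL-12 family subunits, 1 had a call. Il12a, the p35 subunit of IL-12, was positive in 6 of 6 mice, at 0.20, 0.10, 0.31, 0.43, 0.27 and 0.40 in mice 1 to 6. Its mean of 0.28 ± 0.12 lay 1.22-fold from the pool (95% interval 1.12 to 1.32, limma adjusted p = 0.0105), and it passed without each mouse in turn. The value of mouse 2 was below the technical SD on its array, 0.136, and those of the other mice exceeded the technical SD of theirs.

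Il12b, the p40 subunit shared by IL-12 and IL-23, was at -0.044 ± 0.086 (95% interval -0.14 to 0.05), and Il23a, the p19 subunit of IL-23, at -0.010 ± 0.065 (95% interval -0.10 to 0.08). The signalling chains Il12rb1 and Il12rb2 were at -0.16 ± 0.25 (n = 5) and -0.09 ± 0.17 (n = 6), lowest in mouse 1 at -0.45 and -0.38. Neither passed. Of 8 genes listed as partners of this family 5 were tested, and 1 passed, where 24.4% of all tested probes did. This was Ifng, the cytokine that IL-12 induces in T and NK cells, at 0.23 ± 0.11 and positive in every mouse (limma adjusted p = 0.0162). The median of the 5 was -0.16. Ebi3, a subunit of IL-27, ranged over the mice between -1.34 and 0.48 and had no call.

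In the IL-1 family 4 of 8 measured genes passed, 3 negative and 1 positive, where 24.4% of all tested probes passed, 12.3% negative and 12.0% positive. With 8 genes, nothing particular to the family is read from this. Il1r1, the receptor that transmits IL-1 signals, had the smallest adjusted p of the set. Its ratios in mice 1 to 6 were -0.62, -0.51, -0.43, -0.80, -0.59 and -0.66. No mouse came near 0, and mouse 3, although the weakest, was close to mouse 2. The mean was -0.60 ± 0.13, 1.52-fold apart (95% interval 1.40 to 1.65, limma adjusted p = 0.0023), and it passed without each mouse in turn. The probe 24 numbers away in the table, that of Ifit3, had a mean of -0.83, and its part in the ratio of Il1r1 was not tested.

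Il1rn encodes the antagonist that occupies this receptor without signalling. It was measured on 4 arrays, at -0.79, -0.59, -0.38 and -0.55 in mice 1, 4, 5 and 6. All 4 were negative and none was near 0. The mean of -0.58 ± 0.17 (n = 4) lay 1.49-fold from the pool (95% interval 1.30 to 1.70, limma adjusted p = 0.0088). Mice 2 and 3 gave no value, so mouse 3, with the smallest SD over all probes, did not enter it.

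The agonist Il1a was at 0.05 ± 0.08 (95% interval -0.05 to 0.14), and single mice lay on both sides of 0. Il1f5, the older name of the IL-36 receptor antagonist, was at 0.0023 ± 0.094, and Il1rl2, the receptor of IL-36, at -0.011 ± 0.18 over 4 mice. Receptor and antagonist of IL-1 thus had calls on the same side, while Il1a, the only IL-1 agonist measured, had none. Il1b is not among the 52 genes of these families on the platform, so nothing is read of it. Il1rapl2, a receptor-like chain best known from neurons, was positive in the 5 mice with a value, at 0.25, 0.22, 0.065, 0.14 and 0.14 in mice 1, 2, 4, 5 and 6. Its mean of 0.16 ± 0.07 was 1.12-fold from the pool (limma adjusted p = 0.0417), and it passed only without mouse 3, which had no value, of the 6 fits that left out a mouse. The Il1rapl2 value of mouse 4 was below the technical SD on that array, 0.0911.

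Il18r1, the chain that binds IL-18, was at -0.50, -0.33, -0.69, -0.78, -0.19 and -0.001 in mice 1 to 6. Mouse 4 was lowest, mouse 3 next, and mouse 6 at 0. The mean was -0.41 ± 0.30, 1.33-fold apart (95% interval 1.13 to 1.58, limma adjusted p = 0.0276). It did not pass without mouse 1, 2, 3 or 4, with means of -0.40, -0.43, -0.36 and -0.34. After quantile normalization it was farther from 0, at -0.51, but did not pass (adjusted p = 0.0654). Its accessory chain Il18rap was at 0.010 ± 0.14 (95% interval -0.12 to 0.14), with 3 mice on each side. None of 3 measured NK cell markers passed, where 24.4% of all tested probes did, and their median lay between -0.082 and 0.34 over the mice.

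From the 22 partner genes of IL-1 and IL-18 signalling 11 were tested. They had 1 call on each side, where 24.4% of all tested probes were called, and a median of -0.048. Sigirr, an inhibitory receptor of the IL-1 receptor family, was positive in 6 of 6 mice, at 0.58 ± 0.20 (limma adjusted p = 0.0045). Tab2, an adaptor of the kinase that follows the receptor, was negative in 6 of 6 mice, at -0.36 ± 0.17 (limma adjusted p = 0.0101). The IL-18 binding protein Il18bp, a soluble decoy, was at -0.69, -0.56, -0.15 and -0.19 in mice 1, 2, 4 and 6, with a mean that missed the threshold (adjusted p = 0.0517).

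None of the 9 genes of the common gamma and common beta chain cytokines passed, where 24.4% of all tested probes did. Of the 9 means 8 were negative, beside 5918 of 11629 over all tested probes. With 9 genes, nothing particular to the family is read from this. Il21r, the receptor of a T cell cytokine, had ratios of -1.43, -0.80, 0.34, -0.48, -0.39 and -0.34 in mice 1 to 6. Mice 1 and 2 were lowest, and mouse 3 lay on the other side of the pool. The mean of -0.52 ± 0.58 did not pass (95% interval -0.98 to -0.05, limma adjusted p = 0.0964), but it did at -0.69 without mouse 3 (limma adjusted p = 0.0231). Il7r, needed for the survival of naive T cells, was at -0.30, -0.64, 0.10, 0.00, -0.35 and -0.27, a mean of -0.24 ± 0.26 (adjusted p = 0.0986). It too passed without mouse 3, at -0.31 (limma adjusted p = 0.0413).

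Il2ra, the high-affinity chain of the IL-2 receptor that marks activated and regulatory T cells, was positive in 6 of 6 mice but small, at 0.07 ± 0.06 (95% interval -0.02 to 0.15). It had the smallest SD of the set. The signalling chain Il2rb, shared by IL-2 and IL-15, was at -0.09 ± 0.20, with -0.44 in mouse 1 and 0.090 in mouse 4. Il15, which sustains NK and memory T cells, was at -0.15 ± 0.20, and its receptor Il15ra at -0.12 ± 0.13, negative in 5 of 6 mice. Il21, a product of helper T cells, was at -0.11 ± 0.17 over 5 mice, and Il3ra, which binds IL-3, at -0.09 ± 0.09. Il9r, the receptor of IL-9, was at -0.54, 0.058, 0.19, -0.17, 0.10 and 0.12 in mice 1 to 6. Only mice 1 and 4 were negative, and the mean was -0.039 ± 0.27 (adjusted p = 0.794).

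Of 16 partner genes of these cytokines 12 were tested. They had 3 negative and 2 positive calls, where 24.4% of all tested probes were called, and a median of -0.13. Socs1, a feedback inhibitor of cytokine receptors, had ratios of -2.42, -1.75, -0.37, -0.70, -1.02 and -1.19 in mice 1 to 6 (mean -1.24, limma adjusted p = 0.0142). Csf2rb2, a receptor chain of IL-3, was at -0.89, and Csf2ra, the chain that binds GM-CSF, at -0.21 (limma adjusted p = 0.0095 and 0.0456). Socs2 was on the positive side at 0.34, as was the epithelial cytokine Tslp at 0.46 (limma adjusted p = 0.0447 and 0.0055).

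IL-10 signals through a specific chain, Il10ra, and a chain shared with other cytokines, Il10rb. Their means lay on opposite sides, but only Il10ra passed. Il10ra was at -1.05, -0.96, 0.18, -0.35, -0.60 and -0.39 in mice 1 to 6. Mice 1 and 2 were lowest, and mouse 3 alone was positive. The mean of -0.53 ± 0.45 was 1.44-fold from the pool (95% interval 1.12 to 1.85, limma adjusted p = 0.0444). Without mouse 3 it was -0.67 (limma adjusted p = 0.0088), and it passed without no other mouse (adjusted p between 0.0819 and 0.119). Il10rb was at 0.47, 0.14, 0.23, 0.69, 0.18 and -0.12, positive in 5 of 6 mice, with a mean of 0.26 ± 0.28 that did not pass (adjusted p = 0.0902).

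A second Il10rb probe, measured on 3 arrays, was at -0.20, 0.12 and -0.12 in mice 1, 3 and 4, so the sign of Il10rb differed between its probes in mice 1 and 4. In these mice the values of both probes exceeded the technical SD on the array, 0.116 and 0.0911, so the side of Il10rb is not settled. Il10 itself was at -0.05 ± 0.13 (95% interval -0.18 to 0.08), and Il24, a ligand of the IL-10 family, at 0.011 ± 0.078 over 5 mice.

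Il10ra and Il21r are chiefly leukocyte receptors, and macrophage markers were read beside them. The median of the 8 measured macrophage markers was -0.73, -0.58, 0.18, -0.61, -0.41 and -0.41 in mice 1 to 6, with Aif1 at -3.60, -3.05, 0.38, -1.74, -1.16 and -1.65. C1qa and C1qb also passed, with mouse 3 alone above 0 as for Aif1. Cd68, Mrc1, Itgax, Marco and Mertk did not pass, and their order differed: Marco was positive in mice 1, 3, 4 and 5, with 1.74 in mouse 4, Mrc1 was positive in mice 1 and 2 and at -0.046 in mouse 3, and Mertk was at -0.26 in mouse 3. The median of 8 T cell markers was -0.33, -0.057, 0.28, 0.15, -0.15 and 0.016. Of these 1 passed, Cd247 on the positive side, where 12.0% of all tested probes were called positive. None of 7 B cell markers passed, where 24.4% of all tested probes did. All 7 B cell means were negative, beside 5918 of 11629 over all tested probes. Their median was -0.35, -0.41, 0.29, -0.33, -0.41 and -0.077 in mice 1 to 6. Mouse 3 was the only mouse above 0 in the macrophage and the B cell medians, as for Il10ra and Il21r. Of single B cell markers, Cd79a and Fcer2a were also above 0 in mouse 6, and Cd79b in mice 5 and 6. Clca1, Muc5ac, Retnla and Arg1 were above 0 in mouse 3 alone as well, so the pattern is not particular to these markers and receptors. The part of these cells in the ratios of Il10ra and Il21r was not tested.

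**Figure D3:**
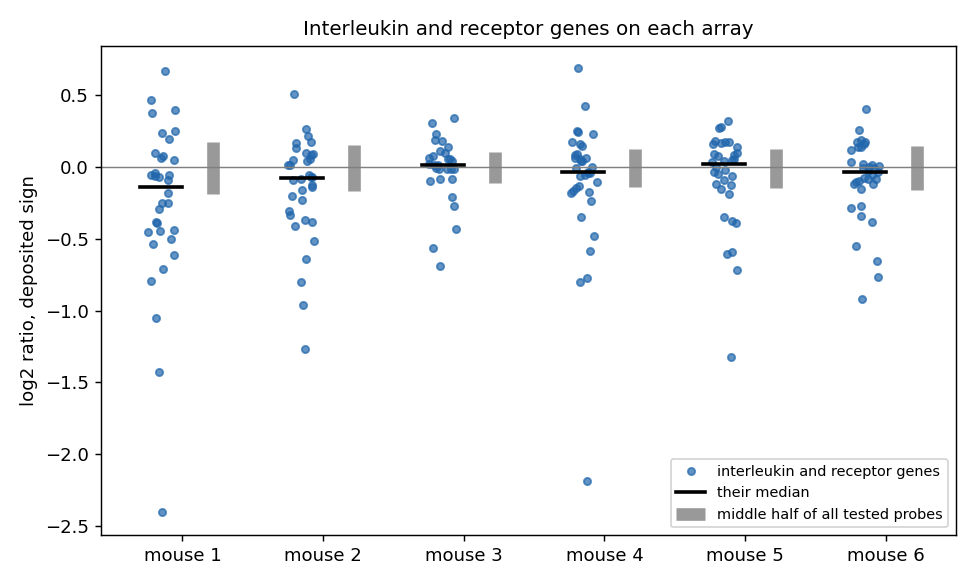
Log2 ratios (deposited sign) of the measured interleukin and receptor genes on each array as points, with their median as a black line. The grey bar is the interquartile range of all tested probes on that array. The median is lowest in mouse 1, at -0.14, and slightly above 0 in mice 3 and 5.

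No IL-17 ligand could be tested, and none of the 3 receptor genes of this family passed, where 24.4% of all tested probes did. Il17rd, a receptor chain that also limits fibroblast growth factor signals, was at 0.67, 0.51, 0.11, 0.24, -0.020 and 0.18 in mice 1 to 6. Mice 1 and 2 were highest, and its mean of 0.28 ± 0.26 missed the threshold (95% interval 0.07 to 0.49, limma adjusted p = 0.0621). It passed with scaled arrays, quantile normalization and array weights, and without mouse 5. Il17rb, the receptor of IL-25, was at -0.71, -0.38, 0.020, -0.13, 0.035 and -0.15, a mean of -0.22 ± 0.28 (adjusted p = 0.146). Il17rc, a partner chain for IL-17A and IL-17F, was at 0.039 ± 0.23, with 0.40 in mouse 1 and 0.23 in mouse 4 but below 0 in the other 4 mice.

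Of 9 genes listed for IL-17 signalling 6 were tested, and 1 passed, where 24.4% of all tested probes did. This was Cxcl1, a neutrophil chemokine induced by IL-17 and by IL-1, at -3.17, -1.98, -0.18, -2.66, -1.07 and -1.06 (mean -1.69, limma adjusted p = 0.0190). Mice 1, 2 and 4 were lowest and mouse 3 nearest 0, as for Il6 and also for Muc5ac, Retnla and Arg1. The median of the 6 was -0.28. Of 10 neutrophil markers 3 passed, all negative (Mpo, Mmp8 and Cd177), where 12.3% of all tested probes were called negative. Of the 10 means 9 were below 0 and 1 above. S100a8 and S100a9 did not pass, at -0.07 ± 0.87 and -0.13 ± 1.02, and both were positive in mice 3, 4 and 6.

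Il34, a ligand of the macrophage growth factor receptor Csf1r, was positive in 6 of 6 mice, at 0.24, 0.18, 0.061, 0.25, 0.32 and 0.16. Its mean of 0.20 ± 0.09 was 1.15-fold from the pool (95% interval 1.07 to 1.23, limma adjusted p = 0.0164), and it passed without each mouse but mouse 4 (adjusted p = 0.0573). Its value in mouse 3 was below the technical SD on that array, 0.129. The probes of Il34 and Il1rapl2 lie 24 numbers from stronger positive probes, those of Mettl26 at 0.31 and Npy at 0.20, and their part in these ratios was not tested.

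Across families, 5 of 14 ligand genes (35.7%) and 4 of 21 receptor genes (19.0%) passed, beside 24.4% of all tested probes, and the difference between ligands and receptors was not tested. The median of the means was -0.027 for ligands and -0.088 for receptors, and the median SD between mice 0.109 and 0.201. Receptor genes thus had the larger spread in the median, although the largest single SD belonged to the ligand Il6. The median SD of the 28 genes measured on all arrays was 0.166, close to 0.158 for all such probes.

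The arrays differed in how many of these genes lay away from 0. In mouse 1, 7 of 34 measured genes were at -0.5 or below and 1 at 0.5 or above, where 9.78% and 7.47% of all tested probes lay. In mouse 3 it was 2 of 29 and 0, beside 2.21% and 1.40% of probes. Mice 2, 4, 5 and 6 had 5, 4, 4 and 4 genes at -0.5 or below, beside 8.39%, 5.90%, 6.09% and 8.18% of probes. At 0.5 or above, mice 2 and 4 had 1 gene each and mice 5 and 6 none. Il6 was the lowest gene in mice 1, 2, 4 and 6, Il31 in mouse 5 and Il18r1 in mouse 3.

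The number of calls depended on single mice, in the set and among all tested probes. For the set it was 4 without mouse 1, 4 without mouse 2, 3 without mouse 4 and 4 without mouse 6. In each case these were among the original 9, and 34, 34, 33 and 33 genes were tested. Those fits called 2378 of 10867, 1382 of 10863, 1354 of 10749 and 1721 of 10801 probes, against 2832 of 11629 with all mice. Without mouse 5 the set had 7 calls, of which 6 were among the 9, beside 2065 of 11167 probes. Without mouse 3 it had 10, of which 7 were among the 9, beside 2999 of 11047 probes. Here Il31 and Il18r1 lost their call, and Il21r, Il7r and Il6st gained one. Il1r1 and Il12a passed in all 6 of these fits. Il1rn could be fitted only without mouse 2 or mouse 3, which had no value for it. Both fits used the same 4 values, so its dependence on single mice was not tested.

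**Figure D4:**
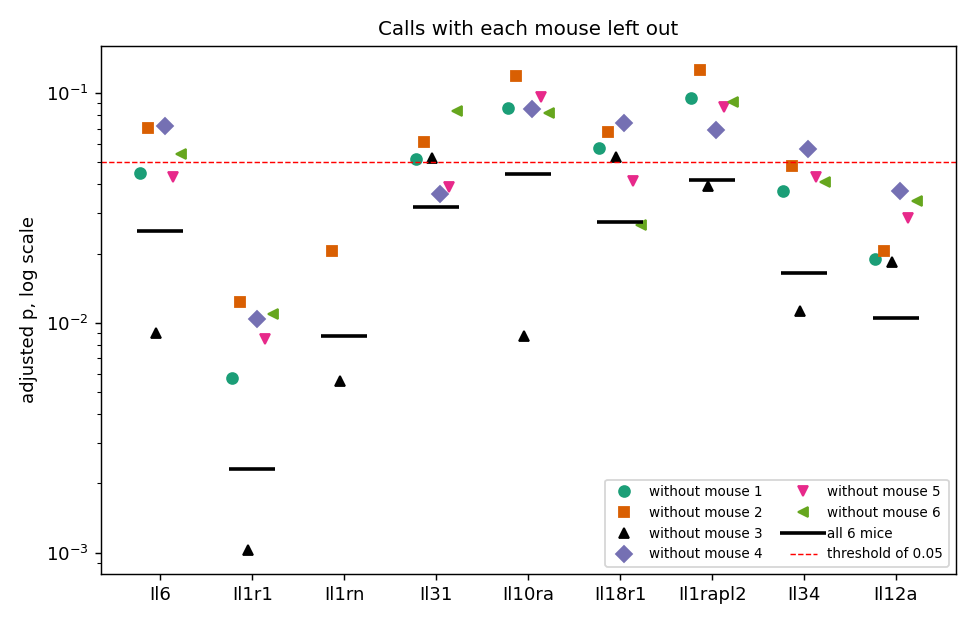
Adjusted p (limma, log scale) of the 9 genes with all 6 mice, as black bars, and with each mouse left out, as symbols. The dashed line is the threshold of 0.05. All 6 symbols lie below it for Il1r1 and Il12a, and 1 of 6 for Il10ra and Il1rapl2. Il1rn has 2 symbols, for the mice without a value of it, since the other fits left it under 4 arrays.

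The platform carries 17 more genes of these families whose probe had values on fewer than 4 arrays, so that 67.3% of 52 genes could be tested, beside 73.0% of all genes. Il18, Il2, Il25 and the IL-1 receptor accessory chain Il1rap had no value on any array. Il3, Il5ra, Il7, Il17a, Il27ra and Il1f8 had 1 value each, Il1f6 had 2, and Il1r2, Il9, Il16, Il17b, Il17ra and Il20 had 3. All values of these genes lay between -0.37 for Il9 in mouse 1 and 0.18 for Il17b in mouse 5. The decoy receptor Il1r2 was at -0.11, -0.12 and -0.17 in mice 3, 4 and 6, negative like Il1r1 but closer to 0.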

How the data were processed

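The log2 ratios analysed are the values the authors deposited for 6 two-colour arrays, 1 per spot. How they were scanned, background-corrected, normalized and filtered is not given in the sources used here, nor are dyes, logarithm base and direction. Base 2 was assumed, since base 10 would turn the lowest value, -5.95, into a ratio beyond a scanner's range. The platform annotation gave 1 symbol for 14722 of 17280 probes, several for 1 and none for 2557. Of these symbols 14445 were updated by gene identifier (GRCm38.p6, used for names and promoters). Each array was centred on the median of probes measured on all arrays (between -0.012 and 0.008). Rows of 10 sequences repeated 17 times and 4 plant controls were left out. Probes measured on at least 4 arrays, 11629 in all, entered a two-sided limma test of the mean against 0 (version 3.58.1, R 4.3.3; intercept and eBayes). Benjamini-Hochberg adjustment ran over all of them. The pool counts as 1 control sample, its own spread does not enter, and a dye effect would not cancel. The fit was also run on simulated data with independent noise for each probe and array. These held no pool error and no dye effect, so they do not bear on those limits. Values for every mouse were given for interleukin and receptor genes past the threshold, with a mean of at least 0.5 on either side, or among the 8 with the largest SD. From partner and marker lists, called genes (at most 5 per list, by size of the mean) and defining markers were named, mostly by their mean. The values by mouse of Socs1, Cxcl1 and Aif1, and Il7r, Il17rd, Il6st, Il1r2, Socs3, Il18bp, Ebi3 and the response genes that bear on direction fall outside these rules, picked once their values were known. Members and lists were chosen with earlier results of these data known. Alternatives were other scalings, other minima of arrays per probe, weighted arrays, a robust prior, a stricter threshold, 1 probe per gene, any probe of a gene, updated symbols, keeping the repeated rows and leaving out each mouse. Plots used matplotlib 3.10.9 (Python 3.11.15).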

Additional observations from a re-analysis of the deposited data

How the results depend on the processing

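The 9 calls among interleukin and receptor genes, the 2832 calls among all probes and the 12 calls among partner genes stayed within 1.5 times of these counts under no centring, scaled arrays, quantile normalization, 3, 5 or 6 arrays as the minimum, weighted arrays, a robust prior, adjustment over 1 probe per gene and with the repeated and plant rows kept. For the interleukin and receptor genes these gave 7 to 10 calls, and 9 with any tested probe of a gene or with updated symbols. No gene had a second tested probe, so a mean over probes would change nothing. At an adjusted p of 0.01 the counts were 2 (Il1r1 and Il1rn), 746 and 5. With each mouse left out they ranged from 3 to 10, from 1354 to 2999 and from 7 to 14, and the cause was not tested. Omitting the genes whose probe lies 6, 18 or 24 numbers from a stronger called probe of the same sign, an alternative chosen after seeing the data, left 6 calls among 19 genes, without Il1r1, Il34 and Il1rapl2. Of the 13 genes followed through the alternatives, only Il9r changed sign, between -0.085 and 0.060 with a mouse left out (0.060 without mouse 1), and it had no call in any fit. No paired analysis was possible because each array holds 1 OVA mouse against the same pool and there is a single group. Signal over background was not part of the values, so dim spots could not be told from bright ones, and the missing values were taken as deposited.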

Other observations

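None of the 35 genes had a mouse that stood apart from the others by Dixon's criterion, which compares the gap at either end of the group with its range. Among the 28 genes measured on all arrays, the order of the mice differed between genes that lay on the same side: Il6 was lowest in mice 1 and 4, Il10ra and Il21r in mice 1 and 2, Il18r1 in mice 4 and 3, and Il31 in mice 5 and 6.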
